A study of Mus musculus with 2 samples.

Results

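Siglec, CD300, LILR and PIR genes encode families of immunoglobulin-domain receptors that sit on the surface of myeloid cells. The genes described here were chosen by name: every gene whose symbol begins with Siglec, Cd300, Lilr, Pira or Pirb, together with Cd22, Cd33, Mag and Sirpa, provided that at least 1 of its transcripts is annotated as protein coding. The rule found 28 of 55536 annotated genes, namely 9 Siglec genes (Cd22, Cd33 and Mag included), 12 CD300 genes, 6 LILR and PIR genes and Sirpa. The rule used no measured value, although the members were chosen with earlier results of these data known.

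The data came from 2 RNA-seq libraries of polyadenylated RNA, biological replicates 1 and 2 of a single group. Both were made from primary macrophages grown out of C57BL/6J mouse bone marrow and exposed for 30 min to a bacterial ligand at 100 ng/ml. The ligand is called lipid A in the free-text label and lipoprotein A, classed as a protein, in the source and treatment labels. Both libraries carry the same donor record and separate biosample records. No genotype change, sex or age is given, and whether the cells came from separate animals is not stated. No untreated sample was analysed here, so the values describe treated macrophages and show no response to the ligand.

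Most of these receptors fall into inhibitory and activating partners. An inhibitory receptor carries tyrosine motifs in its cytoplasmic tail, which on phosphorylation by Src-family kinases recruit the phosphatases SHP-1 (Ptpn6), SHP-2 (Ptpn11) and SHIP-1 (Inpp5d). An activating partner has a short tail and, in many cases, a charged residue in its membrane segment through which it binds the adaptors DAP12 (Tyrobp) or the Fc receptor gamma chain (Fcer1g), which signal through Syk. Siglecs bind sialic acids on glycans, CD300 receptors bind membrane lipids such as phosphatidylserine, LILR and PIR receptors bind among others MHC class I molecules, and SIRP-alpha binds CD47, the signal by which a cell is spared from phagocytosis.

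The inhibitory tail motif is read directly from the coding sequence. The stretches below are coding bases around such motifs, taken from transcripts of GENCODE M21 on mm10. They come from the receptors with motifs that had the highest level by gene total, over all kinds of transcript. Capitals mark the 18 bases that encode the motif (isoleucine, valine, leucine or serine, any residue, tyrosine, any 2 residues, then isoleucine, valine or leucine), and the coordinates are those of the capitals.
Sirpa motif 1, chr2:129629954-129629971, plus strand: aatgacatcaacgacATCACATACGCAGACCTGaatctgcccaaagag
Sirpa motif 2, chr2:129630077-129630094, plus strand: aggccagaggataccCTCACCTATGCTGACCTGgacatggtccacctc
Sirpa motif 3, chr2:129630149-129630166, plus strand: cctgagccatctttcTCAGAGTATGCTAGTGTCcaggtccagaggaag
Pirb motif 2, chr7:3712786-3712803, minus strand: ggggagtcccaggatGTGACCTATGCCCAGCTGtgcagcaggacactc
Pirb motif 3, chr7:3712696-3712713, minus strand: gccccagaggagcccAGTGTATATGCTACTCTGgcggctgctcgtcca
Lilrb4a motif 1, chr10:51496021-51496038, plus strand: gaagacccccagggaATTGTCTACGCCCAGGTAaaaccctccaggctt
Lilrb4a motif 2, chr10:51496194-51496211, plus strand: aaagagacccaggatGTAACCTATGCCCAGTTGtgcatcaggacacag
Cd300a motif 1, chr11:114899846-114899863, plus strand: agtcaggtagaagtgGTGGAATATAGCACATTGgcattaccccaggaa
Cd300a motif 2, chr11:114901147-114901164, plus strand: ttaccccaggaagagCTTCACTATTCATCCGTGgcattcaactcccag
Cd300lf motif 2, chr11:115117112-115117129, minus strand: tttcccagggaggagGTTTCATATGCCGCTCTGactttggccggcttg
Cd22 motif 3, chr7:30866600-30866617, minus strand: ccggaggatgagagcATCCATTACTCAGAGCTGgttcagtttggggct
Every stretch holds the codon for tyrosine at the same place in the motif. The second motif of Pirb and the second motif of Lilrb4a, receptors of the same family on different chromosomes, shared 39 of 48 bases without gaps. It was the highest of 233 pairs of 48-base stretches from different receptors, whose median was 17 bases. Some of these stretches lie around a related motif with threonine at the first place.

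Cytoplasmic tails were translated for the principal coding transcript of all 28 genes, and the motif was counted after the most hydrophobic window of 21 residues. Cd22 had 4 motifs, Sirpa, Pirb and Siglecg had 3 each, and Cd300a, Cd300lf, Lilrb4a and Siglecf had 2 each. Siglece and Siglec15 had 1 each, and the other 18 genes had none, among them Pira2, Lilr4b, Siglec1, Cd33, Mag and all of Cd300ld to Cd300ld5. A related switch motif, with threonine at the first place, occurred in Sirpa, Cd300lf and Siglece. Away from the edges of the membrane window (its outer 5 residues on each side), a lysine lay in Cd300lb, Cd300c2, Cd300c, Cd300e, Siglech and Siglec15, as in receptors that pair with DAP12, and a glutamate in Cd300ld. Near an edge, Pira2, Lilra5, Lilra6 and Cd300ld2 had an arginine and Cd22, Cd33 and Siglecf a lysine. A glutamate near an edge was also found in Pira2, Lilra5, Lilra6, Cd33 and Siglech. Cd300ld3, Cd300ld4, Cd300ld5, Sirpa, Pirb, Lilrb4a and Lilr4b were among the 14 genes with no charged residue in the window.

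Of the 28 genes, 17 reached 1 TPM in both libraries (TPM is a relative level scaled by transcript length, so that genes can be set side by side). They were 3 of 9 Siglec genes, 8 of 12 CD300 genes, 5 of 6 LILR and PIR genes and Sirpa. The share at 1 TPM was 60.7%, against 45.5% of 21951 protein-coding genes. At 100 TPM or more in both libraries stood 8 genes, or 28.6%, against 4.79% of protein-coding genes. Summed over the 28 genes the level was 4078 TPM in replicate 1 and 4213 TPM in replicate 2. Sirpa alone made up 35.9% and 31.9% of that sum, the CD300 genes 38.7% and 29.0%, the LILR and PIR genes 22.8% and 36.3%, and the Siglec genes 2.56% and 2.86%. In bulk samples, fewer cells that express a receptor and less RNA per cell cannot be told apart.

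**Figure D1:**
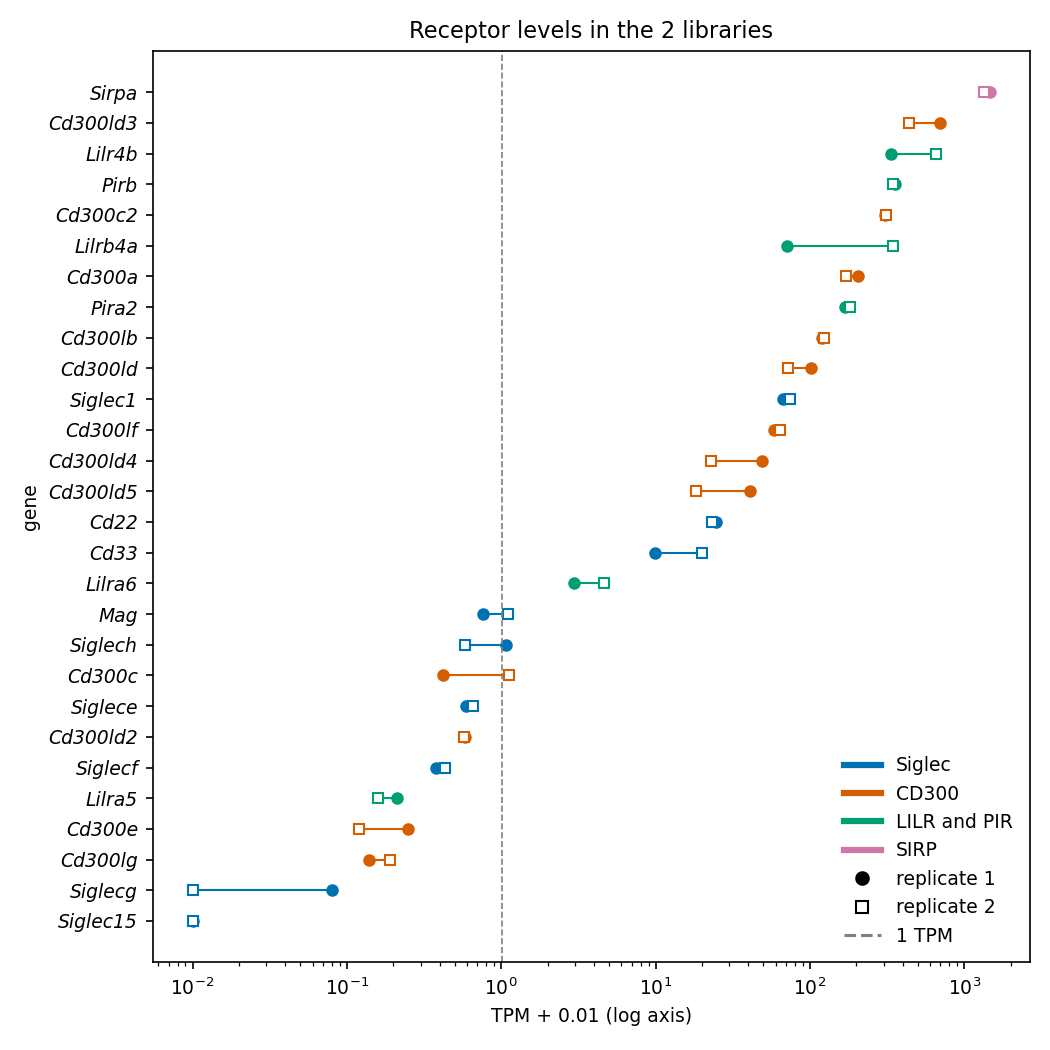
TPM + 0.01 on a log axis for each of the 28 genes, ordered by mean, with replicate 1 as a filled circle and replicate 2 as an open square. The line joins the libraries, the colour gives the family and the dashed line marks 1 TPM. Sirpa stands highest at 1465 and 1343 TPM, and the lines of Lilrb4a and Siglecg are the longest among the genes with reads.

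Sirpa, the inhibitory receptor for CD47, had the highest level, 1465 TPM in replicate 1 and 1343 TPM in replicate 2 (1404 ± 86.9, SD, n = 2), and ranked 76 among all annotated genes. Its range did not overlap that of the next gene. Transcripts that encode a tail with the motifs made up 1258 and 1118 TPM. Sirpa-204 took 35.5% and 32.0% of the gene's TPM and Sirpa-214 took 30.1% and 30.4%. Both encode a protein of 509 residues. In the second quantification the order of these transcripts was the other way round, 18.4% and 15.9% against 47.3% and 47.8%, so the split between them was not settled by these data. Its ligand Cd47 was measured in the same cells at 225 and 234 TPM.

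Pirb, the inhibitory paired immunoglobulin-like receptor for MHC class I, was measured at 355 and 343 TPM (349 ± 8.22, SD, n = 2). Its activating counterpart Pira2 was measured at 168 and 181 TPM (174 ± 8.80, SD, n = 2), below the gene total of Pirb in both libraries. By protein-coding transcripts alone the order was the other way round, with Pirb at 135 and 145 TPM (20.6 and 29.8 in the second quantification) and Pira2 at 168 and 181 TPM (148 and 177). This comparison is unequal by annotation. Both annotated transcripts of Pira2 are protein coding, whereas Pirb has 4 retained-intron transcripts to which reads can be given. Pira2 also shares 93.0% of its 50-base stretches with other genes, so which of the 2 has more coding RNA was not settled. Lilra6, a further activating receptor of the family, was measured at 2.94 and 4.65 TPM. Lilra5 had 9 and 10 counts, or 0.20 and 0.15 TPM. The 2 libraries were close for Pirb and Pira2. The pair is alike outside the tail: their proteins were identical at 89.7% of 680 aligned residues, and Lilra6 and Pira2 were identical at 92.2%.

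Lilr4b and Lilrb4a lie side by side on chromosome 10 (chr10:51480632-51486703 and chr10:51490956-51496611, both on the plus strand). Lilrb4a, also known as gp49B, is inhibitory and known to bind an integrin of the subunits Itgav and Itgb3, whereas Lilr4b, also known as gp49A, has a short tail. Lilr4b was measured at 335 TPM in replicate 1 and 655 TPM in replicate 2 (495 ± 226, SD, n = 2). Lilrb4a was measured at 70.8 and 345 TPM (208 ± 194, SD, n = 2). Its transcripts that encode a tail with the motifs were at 14.7 and 9.52 TPM (0.31 and 0.48 in the second quantification). These values leave out the readthrough gene Gm49339, described below. Lilr4b and Lilrb4a were both higher in replicate 2, and their SDs were the largest of the 28 genes. Itgav and Itgb3 were measured at 21.5 and 19.3 TPM and at 11.1 and 8.0 TPM.

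Among CD300 genes the level ran from 695 TPM to 0.11 TPM. Cd300ld3 was highest, at 695 and 437 TPM (566 ± 182, SD, n = 2). Cd300c2, also known as CLM-4 or MAIR-II and an activating receptor that pairs with DAP12, was measured at 306 and 311 TPM (309 ± 2.98, SD, n = 2). Cd300a, an inhibitory receptor for phosphatidylserine and phosphatidylethanolamine, followed at 205 and 172 TPM (189 ± 23.0, SD, n = 2). Cd300c2 differed little between the libraries, whereas Cd300ld3 and Cd300a were lower in replicate 2. Cd300lb, which is activating and pairs with DAP12, was measured at 120 and 123 TPM. Cd300ld, which pairs with the Fc receptor gamma chain, was measured at 102 and 71.7 TPM. Cd300lf, an inhibitory receptor for phosphatidylserine and the entry receptor of mouse norovirus, was measured at 58.1 and 64.1 TPM. Cd300ld4 and Cd300ld5 were measured at 48.8 and 22.8 TPM and at 40.9 and 18.3 TPM. No other CD300 gene reached 1 TPM in both libraries, and these 8 also reached 10 TPM.

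The remaining CD300 genes were near or below 1 TPM. Cd300c had 4 and 14 counts (0.41 and 1.12 TPM) and Cd300ld2 had 9.29 and 12.4 expected counts (0.57 and 0.56 TPM). Cd300e, a monocyte receptor, had 11 and 7 counts (0.24 and 0.11 TPM). Cd300lg, which is known from endothelium, had 7 counts in each library (0.13 and 0.18 TPM). With so few reads their order among themselves could not be read.

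Siglec genes were the lowest of the families. Siglec1, also called sialoadhesin or CD169, is a long macrophage receptor without inhibitory motif and was measured at 66.9 and 74.7 TPM (70.8 ± 5.52, SD, n = 2). Cd22, best known as the inhibitory Siglec of B cells, was measured at 24.6 and 23.0 TPM (23.8 ± 1.12, SD, n = 2). Cd33 was measured at 9.96 and 20.0 TPM (14.96 ± 7.07, SD, n = 2). In mouse Cd33 the tail held none of the motifs counted here. The other 6 Siglec genes were at or below about 1 TPM.

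Most of these 6 are best known from other cells. Siglech, a marker of plasmacytoid dendritic cells, had 45 and 29 counts (1.07 and 0.57 TPM). Mag, a protein of myelin-forming glia, had 39 and 83 counts (0.75 and 1.10 TPM). Siglece, an inhibitory receptor of neutrophils and macrophages, had 23 and 36 counts (0.58 and 0.65 TPM). None of these reached 1 TPM in both libraries by these values. Mag did so in the second quantification (1.42 and 1.33 TPM) and by posterior mean TPM (1.66 and 1.84). Siglecf, a marker of eosinophils and alveolar macrophages, had 21 and 34 counts (0.37 and 0.42 TPM), and Siglecg, an inhibitory receptor of B cells, had 4 and 0 counts. Siglec15, known from osteoclasts, had 0 counts in both libraries, which at these depths allows up to 3 counts, or 0.0794 and 0.0578 CPM (counts scaled to library depth). This limit takes in counting error alone: without molecular identifiers, several reads may stem from the same molecule.

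Ordered by mean level, neighbours whose 2 values overlapped could not be ranked. This held for the neighbouring pairs Cd300ld3 and Lilr4b, Lilr4b and Pirb, Cd300c2 and Lilrb4a, Lilrb4a and Cd300a, and Cd300a and Pira2. It also held for Cd300ld and Siglec1, Cd300ld4 and Cd300ld5, and Cd300ld5 and Cd22. Genes further apart in the order were not covered: Cd300ld3 was above Pirb in both libraries, while Lilrb4a overlapped Pirb too. Every other gene at 1 TPM or more in both libraries stood apart from the gene next below it.

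Defining markers of macrophages were present and those of several other cell types were near 0. All 8 macrophage markers were at 10 TPM or more, with Lyz2 highest at 15907 and 22127 TPM. Of 6 B-cell markers 2 reached 1 TPM in both libraries, Blnk at 138 and 136 TPM and Cd79b at 3.88 and 1.43 TPM (94 and 52 counts), while Cd79a, Ms4a1 and Pax5 had at most 2 counts each in either library. The summed B-cell list was 142 and 138 TPM, and its part in the level of Cd22 was not tested. Plasmacytoid dendritic cell markers reached 1 TPM in 3 of 6 cases, with Bst2 highest at 285 and 513 TPM and Klk1 at 0 counts, for a sum of 311 and 558 TPM. Of 5 oligodendrocyte markers 2 reached 1 TPM, Cnp being highest at 37.5 and 32.5 TPM, and Mog and Mobp had 0 counts. Of 5 eosinophil markers 1 did, Ccr3 at 4.30 and 5.82 TPM, and Ear6 had 0 counts. No marker of conventional dendritic cells (Flt3 highest, 0.63 and 0.18 TPM), mast cells and basophils (Gata2 highest, 0.01 and 0.24 TPM, with Fcer1a at 0 counts) or endothelium (Pecam1 highest, 1.19 and 0.48 TPM, with Tek at 0 counts) reached 1 TPM in both libraries. All 4 monocyte markers did, Ly6c2 being highest at 15.6 and 8.38 TPM.

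With 1 library on each side, the ratio of replicate 2 to replicate 1 describes these libraries and no condition. It was computed from counts scaled to common library sizes (TMM) for the 22 receptor genes among 12266 genes that passed a filter on low counts; the median log2 ratio was -0.06 for the 22 and 0.00071 for all. The median size of the log2 ratio, regardless of sign, was 0.28 for the receptors and 0.27 for all genes. More than 2-fold higher in replicate 2 were 2 of the 22, Lilr4b and Lilrb4a, against 4.97% of all genes tested. More than 2-fold lower were 3 of the 22, Cd300ld4, Cd300ld5 and Siglech, against 3.11% of all genes tested. The call of Siglech was lost in the second quantification and with the ratio of TPM + 1, and scaling by total counts put Cd33 above 2-fold too. Medians by family were 0.08 for 7 Siglec genes, -0.32 for 9 CD300 genes and 0.57 for 5 LILR and PIR genes.

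Counting noise alone was smaller than most of these differences. By an exact two-sided binomial test with Benjamini-Hochberg adjustment over all 12266 genes, 6 receptors were higher in replicate 2 (Lilr4b, Lilrb4a, Cd33, Lilra6, Cd300lf and Siglec1), where 32.1% of all genes were. By the same test 9 were lower (Sirpa, Pirb, Cd300c2, Cd300a, Cd300ld, Cd300ld3, Cd300ld4, Cd300ld5 and Siglech), where 31.1% of all genes were. Scaling by total counts gave 9 higher and 7 lower, where 42.7% and 20.0% of all genes were. With DESeq2 size factors 6 were higher and 11 lower, where 31.2% and 32.0% of all genes were. In the second quantification 5 of 24 were higher and 11 lower, where 32.0% and 32.2% of all genes were. With TMM scaling the receptors were thus called by this test about as often as other genes were. Calls beyond 2-fold were more frequent among the receptors, at 9.09% higher and 13.6% lower, against 4.97% and 3.11% of all genes tested. Those calls rest on few genes, and Lilr4b, Lilrb4a, Cd300ld4 and Cd300ld5 among them share sequence with neighbouring copies. The binomial test compares the reads of 2 libraries, not conditions. Over all genes the spread between the libraries corresponded to a biological coefficient of variation of 0.25 (edgeR).

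**Figure D2:**
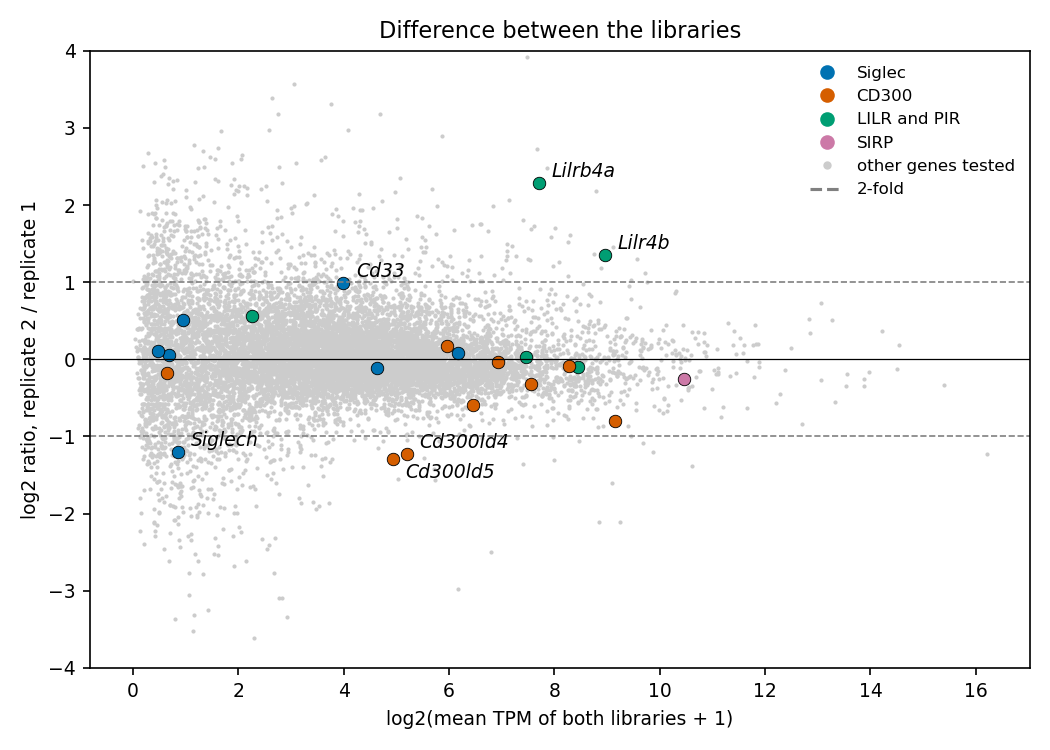
Log2 ratio of replicate 2 to replicate 1 against log2(mean TPM + 1) for all genes tested (grey) and the 22 receptor genes tested (coloured by family), with dashed lines at 2-fold; 2 grey genes lie outside the axis. Lilr4b and Lilrb4a lie above the upper line at 1.35 and 2.29, Cd300ld4, Cd300ld5 and Siglech lie below the lower line, and Cd33 lies just under the upper line at 0.99.

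For single genes the log2 ratio was 2.29 for Lilrb4a and 1.35 for Lilr4b, the largest of the 22. Cd33 came next at 0.99, just inside the 2-fold limit, followed by Lilra6 at 0.57 (adjusted p = 0.000185, exact binomial test). On the other side Cd300ld5 was at -1.295, Cd300ld4 at -1.23 and Siglech at -1.20 (adjusted p = 0.00113, exact binomial test, on 45 and 29 counts), the last of these at -0.89 in the second quantification and at -0.40 with the ratio of TPM + 1. Cd300ld3 was at -0.80, Cd300ld at -0.60, Cd300a at -0.32 and Sirpa at -0.25. Siglec1 was at 0.08 (adjusted p = 3.18e-05, exact binomial test), a call that was lost in the second quantification (0.03, adjusted p = 0.152, exact binomial test). For Cd22 (-0.12, adjusted p = 0.054, exact binomial test), Pira2 (0.03, adjusted p = 0.174, exact binomial test) and Cd300lb (-0.04, adjusted p = 0.110, exact binomial test) the difference did not pass. Each of these outcomes depended on the processing. With scaling by total counts the ratio of Cd300lb turned to 0.08 and passed (adjusted p = 0.000796, exact binomial test), and that of Pira2 passed at 0.14. Those of Cd22 and Cd300lb passed as lower with DESeq2 size factors (-0.13 and -0.05) and in the second quantification (-0.13 and -0.09).

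Other gene groups moved between the libraries as well. The 10 interferon-response genes, a program of which Siglec1 is a known target, summed to 697 TPM in replicate 1 and 1984 TPM in replicate 2. Of the 10, 6 were more than 2-fold higher in replicate 2, against 4.97% of all genes tested. Ifit3 was at 153 and 390 TPM and Ifit2 at 117 and 372 TPM. The 8 neutrophil markers summed to 311 and 55.7 TPM, nearly all of it S100a9 (183 and 37.1 TPM) and S100a8 (124 and 18.1 TPM). No other marker of that list was above 1.86 TPM in either library, and Ly6g had 1 and 0 counts. The 4 monocyte markers summed to 34.9 and 31.8 TPM. The part of these differences in the receptor ratios was not tested.

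The difference of Lilr4b and Lilrb4a lay in transcripts annotated as retaining an intron. For Lilr4b, protein-coding transcripts were at 144 and 171 TPM and retained-intron transcripts at 60.7 and 317 TPM, a 5.22-fold difference in TPM. For Lilrb4a, protein-coding transcripts were at 14.7 and 11.7 TPM and retained-intron transcripts at 51.8 and 331 TPM, a 6.38-fold difference. In these tables the coding transcripts of both genes differed by less than 1.5-fold while the intron-bearing ones differed by more than 5-fold. The second quantification gave 70.4 and 363 TPM for the retained-intron transcripts of Lilr4b and 54.4 and 376 TPM for those of Lilrb4a. Its coding transcripts were at 119 and 149 TPM for Lilr4b but at 1.14 and 4.11 TPM for Lilrb4a, so that the small difference in coding transcripts held in both quantifications for Lilr4b only. Sirpa had 2.54 and 14.98 TPM of a retained-intron transcript, a small part of its level, whereas those of Pirb did not go the same way, at 219 and 198 TPM.

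Such a difference was not confined to these receptors. Among 344 genes with a mean of 10 TPM or more in retained-intron transcripts, the median log2 ratio of TPM + 1 of those transcripts was 0.23, against 2.36 for Lilr4b and 2.65 for Lilrb4a. A higher ratio than that of Lilr4b was found for 19 of the 344 genes (Lilrb4a among them), and than that of Lilrb4a for 11. With the coding transcripts taken in, 14 of the 344 had a retained-intron log2 ratio above 2 and a protein-coding one within 0.5. Lilr4b and Lilrb4a are among these 14. An annotated ribosomal RNA gene took 10.9% of the counts in replicate 1 (95% Wilson interval 10.94% to 10.96%) and 5.05% in replicate 2 (5.04% to 5.05%), intervals that cover counting error only. The part of this difference in the intron reads, and what those reads come from, was not tested.

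Transcripts other than protein-coding ones existed for 11 of the 17 receptors at 1 TPM. In 3 of the 11 (Lilr4b, Pirb and Lilrb4a) the protein-coding transcripts took under 50% of the gene's TPM in both libraries, against 5.35% of all such genes. The median coding share over all such genes was 97.6% and 95.3%. Retained-intron transcripts took 50% or more in both libraries in 2 of 7 receptors that have them, Pirb and Lilrb4a, against 1.69% of all such genes. These genes share sequence with one another, so they are not independent cases. The Lilrb4a shares leave out the readthrough gene Gm49339, described below, to which reads of shared exons can be given. With Gm49339 added, Lilrb4a was at 460 and 774 TPM. Its retained-intron transcripts, at 51.8 and 331 TPM, would then be under 50% in both libraries. Both Lilrb4a calls therefore depend on how reads were assigned.

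**Figure D3:**
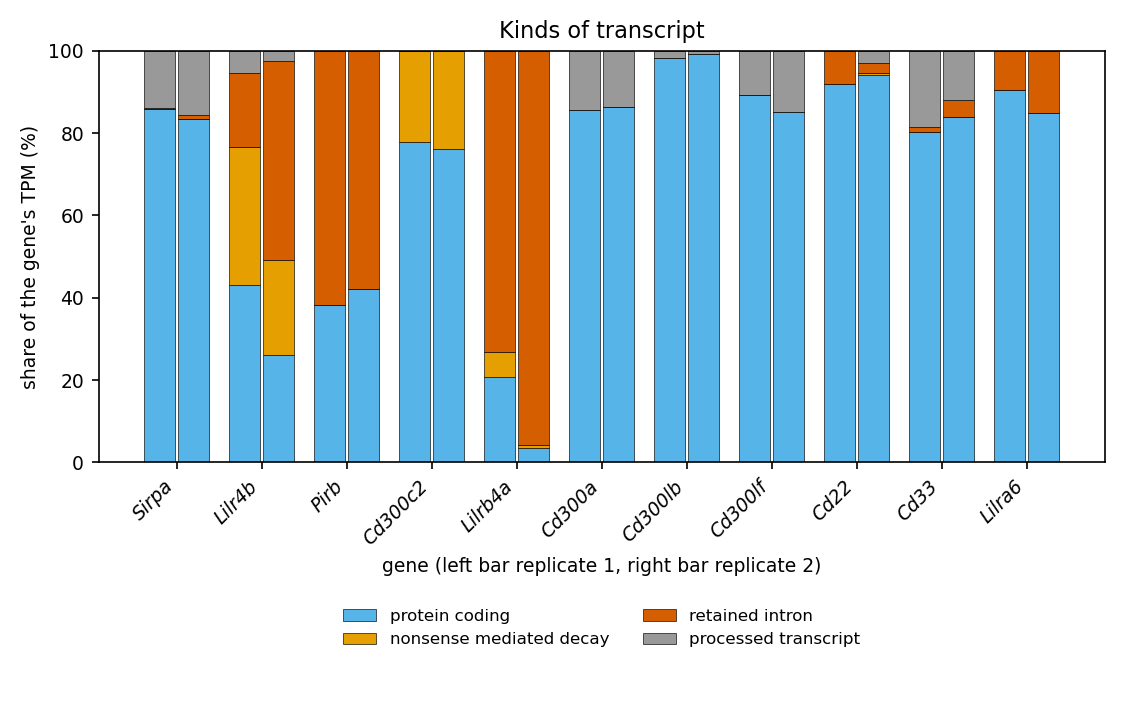
Share of each gene's TPM, in percent, by annotated kind of transcript for the 11 receptors that have kinds other than protein coding, with replicate 1 as the left bar and replicate 2 as the right bar. Retained-intron transcripts fill 61.8% and 57.8% of Pirb and 73.2% and 95.8% of Lilrb4a, with the readthrough gene Gm49339 left out. In Lilr4b they go from 18.1% to 48.4%, while protein-coding transcripts hold over 75% of the other 8 genes.

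For Pirb the share depended on the quantification. Pirb-201, the only protein-coding transcript, took 38.2% and 42.2% (135 and 145 TPM) in the first tables and 6.27% and 8.64% (20.6 and 29.8 TPM) in the second. The retained-intron transcript Pirb-202 took 40.4% and 36.2% in the first and 62.8% and 60.7% in the second. In both, coding transcripts were under 50%, but their level differed by over 4-fold. Cd300c2-202, annotated as a target of nonsense-mediated decay, took 22.1% and 23.8% of Cd300c2.

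Coding isoforms of the other receptors were mostly stable between the libraries. Cd300a-202 took 79.1% and 80.3% of Cd300a. Cd300lb was split between Cd300lb-201 (46.7% and 46.5%), which encodes 255 residues, and Cd300lb-203 (51.6% and 52.7%), which encodes 119, an order that was the other way round in the second quantification (59.1% and 59.6% against 39.0% and 38.1%). Cd300lf-203 took 47.9% and 41.2%, Cd33-203 took 77.5% and 79.8%, Pira2-201 took 84.9% and 85.4% and Siglec1-201 took 98.2% and 97.6%. In Cd22 the transcript with the largest share, Cd22-209 (39.95% and 40.8%), is a fragment of 489 bases with an incomplete coding part, and Cd22-201, with all 4 motifs, took 20.1% and 29.7%. In the second quantification Cd22-201 took 2.37% and 4.22%, and Cd22-202 took 27.4% and 25.3%. Transcripts of Cd22 with the motifs made up 12.8 and 12.1 TPM. Lilra6 was split between Lilra6-201 (28.1% and 34.3%) and Lilra6-204 (46.8% and 30.7%). Cd300ld, Cd300ld3, Cd300ld4 and Cd300ld5 have a single annotated transcript each.

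The full-length coding transcript of Lilrb4a was not measured under that gene. This transcript, Lilrb4a-201, was listed at 0 in both libraries and by both quantifications. A readthrough gene, Gm49339, spans Lilr4b and Lilrb4a, and its transcript Gm49339-203 holds 100% of the 50-base stretches of Lilrb4a-201. Gm49339-203 was listed at 383 and 419 TPM and the whole of Gm49339 at 389 and 429 TPM. Reads of the shared exons can be given to either gene, so the separate levels are uncertain.

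Adding Gm49339 to Lilrb4a, a choice made after the data were seen, gave 460 and 774 TPM. The log2 ratio was then 0.84 in place of 2.29, a 1.79-fold difference, which ends the 2-fold call of Lilrb4a. Gm49339 by itself had a log2 ratio of 0.04 (adjusted p = 0.0358, exact binomial test). Lilr4b, Lilrb4a and Gm49339 together were at 795 and 1429 TPM, a log2 ratio of 1.08.

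**Figure D4:**
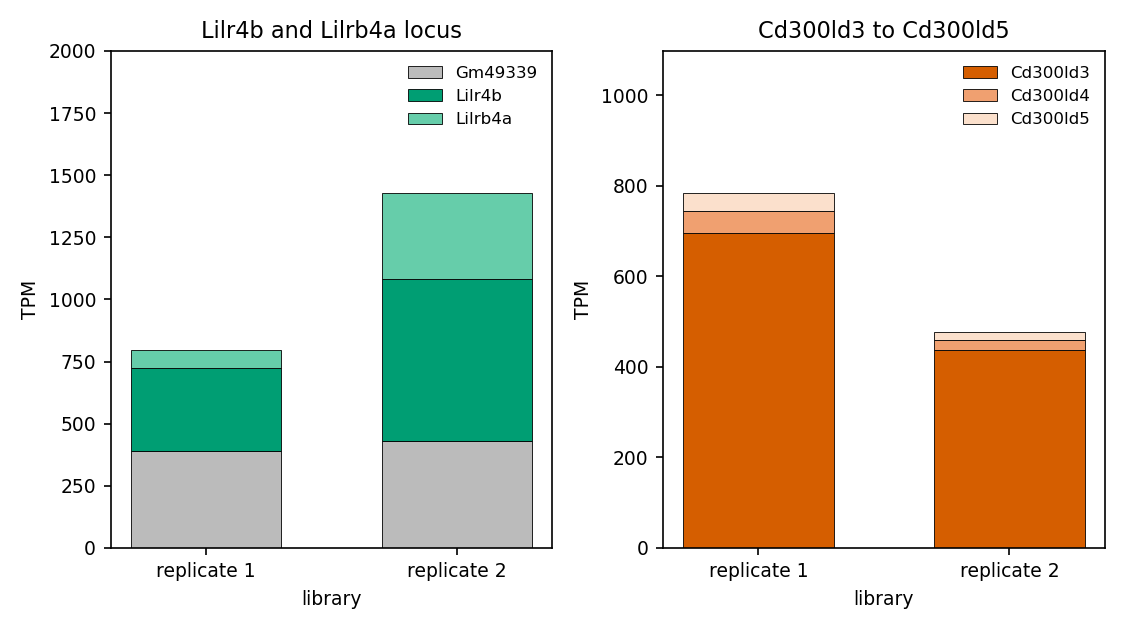
Stacked TPM of Lilr4b, Lilrb4a and the readthrough gene Gm49339 (left) and of Cd300ld3, Cd300ld4 and Cd300ld5 (right) in each library. The left sum is 795 in replicate 1 and 1429 in replicate 2 with Gm49339 nearly level at 389 and 429, and the right sum is 784 and 478 with Cd300ld3 as the main part in both.

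Cd300ld3, Cd300ld4 and Cd300ld5 are near-identical copies within chr11:115020728-115048409. Proteins of Cd300ld4 and Cd300ld5 were identical at all 245 residues, and that of Cd300ld3 was identical to both at 99.6%. Of the 50-base stretches in their transcripts, 82.1% of those of Cd300ld3, 93.8% of those of Cd300ld4 and 100% of those of Cd300ld5 also occur in another gene. Their separate levels therefore rest on few bases, and the deposited posterior SD of the count of Cd300ld5 was 57.5 on 600 counts in replicate 1 and 50.1 on 364 in replicate 2. Summed, the copies were at 784 and 478 TPM, a log2 ratio of -0.85, so the sum lay inside the 2-fold limit that Cd300ld4 and Cd300ld5 passed singly.

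Pira2 shares 93.0% of its 50-base stretches with other genes, mostly with Gm15922 (82.6%), and Pirb 34.0%, Lilra6 31.3%, Cd300ld2 31.0%, Lilrb4a 46.7% and Lilr4b 24.5%. Pira2 summed with 5 related genes outside the name rule was at 226 and 239 TPM (log2 ratio 0.01). Sirpa, Cd300lb, Cd300c, Cd300e, Cd300lg, Lilra5, Siglece and Siglec15 shared none, and the other 11 genes shared under 10%.

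Sequence before the gene start was alike among the copies too. The stretches below lie upstream of genes with the levels given above and are shown to compare each pair, from RefSeq's promoter table on GRCm38.p6, the assembly of mm10. Each is printed 5′ to 3′ on the gene's strand (minus) and ends where the GENCODE gene model begins, and capitals mark GAGGAAGT, a sequence of the type bound by the ETS factor PU.1.
Cd300ld3, chr11:115048410-115048580: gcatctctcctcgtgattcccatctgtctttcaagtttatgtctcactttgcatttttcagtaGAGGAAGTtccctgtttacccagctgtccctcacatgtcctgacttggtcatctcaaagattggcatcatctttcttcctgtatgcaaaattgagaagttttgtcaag
Cd300ld4, chr11:115027013-115027183: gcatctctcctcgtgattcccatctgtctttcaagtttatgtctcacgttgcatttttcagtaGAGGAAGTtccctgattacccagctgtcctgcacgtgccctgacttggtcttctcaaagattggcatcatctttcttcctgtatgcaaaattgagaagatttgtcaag
Pirb, chr7:3720392-3720632: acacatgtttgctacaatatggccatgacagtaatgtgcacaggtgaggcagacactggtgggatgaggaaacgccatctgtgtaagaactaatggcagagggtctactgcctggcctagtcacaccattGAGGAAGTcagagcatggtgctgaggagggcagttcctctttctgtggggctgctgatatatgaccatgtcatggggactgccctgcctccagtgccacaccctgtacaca
Pira2, chr7:3845052-3845301: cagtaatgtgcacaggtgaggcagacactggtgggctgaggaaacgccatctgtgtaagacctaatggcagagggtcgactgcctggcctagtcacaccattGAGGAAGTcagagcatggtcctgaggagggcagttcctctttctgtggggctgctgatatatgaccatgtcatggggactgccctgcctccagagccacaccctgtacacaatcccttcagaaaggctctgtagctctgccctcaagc
The stretches of Cd300ld3 and Cd300ld4 were identical at 95.3% of 171 bases and those of Pirb and Pira2 at 97.7% of 213 aligned bases. Cd300ld3 was listed more than 10-fold above Cd300ld4 in both libraries, a split that rests on few bases, since their transcripts were identical at 98.8%. A link between these levels and the upstream sequence was not tested.

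RefSeq promoters were matched for 22 of the 28 genes. In the 250 bases before the RefSeq start, GAGGAAGT on either strand occurred in 7 of the 22 (Cd300ld, Cd300ld3, Cd300ld4, Cd300ld5, Lilra6, Pira2 and Pirb), or 31.8%, and in 2.79% of 27025 genes. The copies make these 7 fewer independent cases than their number. The shorter GAGGAA, which GAGGAAGT contains, occurred in 16 of the 22 and in 25.9% of all genes. The core of the interferon-stimulated response element, searched on both strands too, occurred in 1 of the 22 (Cd300c) and in 3.46% of all genes. A match is a sequence and no evidence of binding, and the absence of one concerns only this window.

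The genes through which the receptors work were mostly present. Of 41 such genes, 36 reached 1 TPM in both libraries, against 45.5% of protein-coding genes. The lists of these genes too were chosen with earlier results of these data known. Of the 41, 1 was more than 2-fold higher in replicate 2, against 4.97% of all genes tested. Lower by more than 2-fold were 2, against 3.11% of all genes tested.

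All 3 adaptors were above 10 TPM. Tyrobp was measured at 3066 and 3419 TPM and Fcer1g at 1206 and 1421 TPM, both above every activating receptor named here. All 3 phosphatases were above 10 TPM too, Inpp5d at 162 and 169 TPM and Ptpn6 at 152 and 176 TPM. Of 7 kinases 6 reached 1 TPM in both libraries, with Syk at 225 and 184 TPM and Csk, which restrains Src-family kinases, at 145 and 125 TPM.

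Genes that make, place and remove sialic acids, the ligands of Siglecs, were measured as well. All 5 genes of sialic acid synthesis reached 1 TPM, with Cmas at 39.0 and 40.2 TPM and Nans at 24.6 and 25.4 TPM. Of 8 sialyltransferases 7 did, with St6gal1, which makes the linkage that Cd22 binds, at 51.3 and 41.3 TPM and St3gal1 at 20.7 and 27.0 TPM, while St3gal6 was at 0.79 and 0.72 TPM. Of 5 genes that remove or edit sialic acid 3 did, with the lysosomal sialidase Neu1 at 66.1 and 70.01 TPM and the esterase Siae at 23.5 and 17.4 TPM. Neu3 (0.51 and 0.42 TPM) and Cmah, which makes the glycolyl form of sialic acid (0.77 and 0.61 TPM), were below 1 TPM in both.

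Of 10 protein ligands and binding partners 9 reached 1 TPM in both libraries. The MHC class I light chain B2m was highest at 6231 and 8644 TPM, followed by H2-D1 at 3337 and 4106 TPM, ligands of the PIR receptors.

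**Figure D5:**
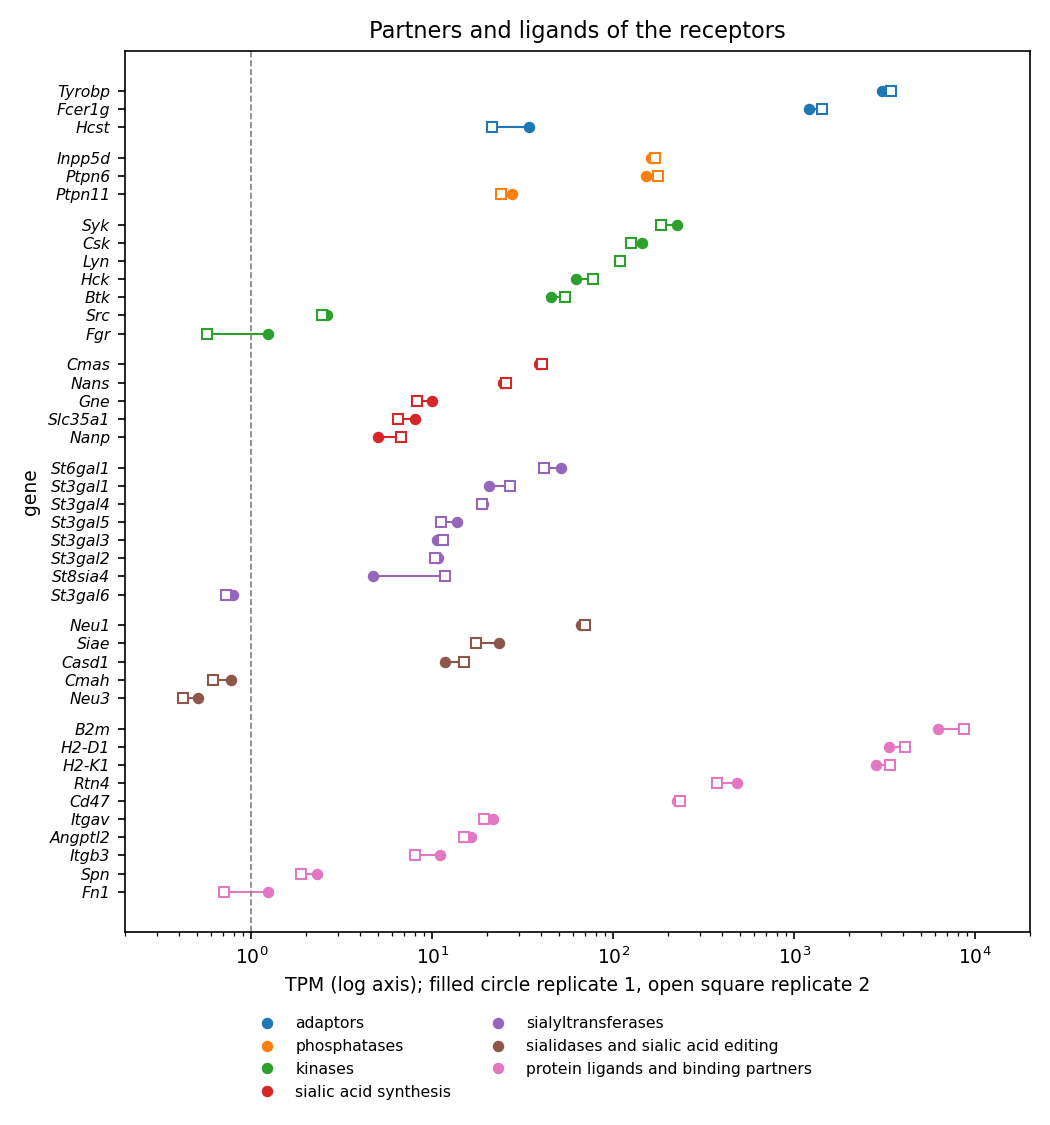
TPM on a log axis for the 41 partner and ligand genes by group, with replicate 1 as a filled circle and replicate 2 as an open square, and the dashed line at 1 TPM. Fcer1g stands at 1206 and 1421 TPM, with Tyrobp, B2m, H2-D1 and H2-K1 above it, and Neu3, Cmah and St3gal6 stay below 1 TPM in both.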

How the data were processed

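Each library had a gene table and a transcript table with deposited expected counts, TPM, posterior mean TPM, posterior SD of the count and, in percent, each transcript's share of its gene, per the file headers, and a second deposited transcript table with estimated counts and TPM. Per the labels and the deposited text files the build was mm10 and the annotation M21. Quantification tools: not given in the sources used here. Other deposited columns, such as the bounds of TPM intervals, were not used for results. The members and lists were chosen with earlier results of these data known.

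Symbols came from the second table and matched the gene tables by identifier. Of 55536 identifiers 55450 also had a symbol in the table of gene names. Counts naming no gene (0.0891% and 0.0698%) were left out. Depth over genes was 37784941 and 51904470 expected counts. Expected counts were rounded, scaled by TMM and filtered by filterByExpr (edgeR 4.0.16, R 4.3.3), with 0.5 added for ratios. They were compared by an exact two-sided binomial test (scipy 1.17.1, adjusted p under 0.05). That test was also run on simulated counts that held counting noise alone. Such a run cannot show how the test behaves under the larger spread between these libraries. No test between conditions was possible with 1 group. DESeq2 1.42.0 gave the size factors of an alternative. Tails were found by translating the coding part of M21 transcripts, since no table of RefSeq proteins was used here. Identity was from Biopython 1.88 alignments, and shared stretches are exact 50-base matches to transcripts of other genes on the same strand.

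Named were all members, the 2 highest genes of each list of partners, ligands and interferon-response genes and those below 1 TPM in both libraries, the highest gene of each marker list and those at 0 counts (1 marker is not reported here), and transcripts at 20% or more in both libraries. Named besides, after their values were seen, were Cd47, Itgav, Itgb3, Cd79a, Cd79b, Ms4a1, Pax5, S100a8, Ly6g, H2-K1, Gm49339, Gm15922 and further transcripts of the genes described. The split by kind of transcript was added after the data were seen. Alternatives were other detection limits, the posterior mean, the second table, other scalings, filters and priors, and leaving out a library.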

Additional observations from a re-analysis of the deposited data

Results flagged for a closer look

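Some genes outside the name rule share 10% or more of a receptor's 50-base stretches and had more than 3 counts in both libraries, which the comparisons above do not use. Gm49339, the readthrough gene over Lilr4b and Lilrb4a, had a mean of 409 TPM, above that of Lilrb4a itself (208 TPM). Beside Pira2 (174 TPM) stood Gm14548 at 33.3 TPM, Gm15922, annotated as a polymorphic pseudogene, at 17.5 TPM, Gm15448 at 4.13 TPM, Gm15931 at 2.22 TPM and Gm10693 at 0.99 TPM.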

How the results depend on the processing

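The number of receptors at 1 TPM or more was 17 and lay between 16 and 21 over all alternatives run (18 to 19 with either library left out), and that of partner genes, 36 of 41, between 33 and 40. More than 2-fold higher in replicate 2 was 1 receptor, in place of 2, with the ratio of TPM + 1 (Lilrb4a) and with Gm49339 added to Lilrb4a (Lilr4b), and 3 with total counts (Cd33 besides) and with no count filter (Cd300c besides). More than 2-fold lower were 5, in place of 3, with no count filter (Cd300e and Siglecg besides), and 2 without Siglech in the second quantification and with the ratio of TPM + 1. Scaling by total counts moved the median log2 ratio of all genes by 0.12, turned Pirb to 0.0166, Cd300c2 to 0.0301 and Cd300lb to 0.0779, and changed the binomial counts to 9 higher and 7 lower. These counts were 6 higher and 11 lower with DESeq2 size factors, and 5 higher and 11 lower in the second quantification. The ratio of TPM + 1 turned Cd300c2 to 0.0197 and Cd300lb to 0.0326, the second quantification turned Pira2 to -0.0250 and Cd300ld2 to 0.294, and a prior count of 5 turned Siglece to -0.0250. The cause of these was not tested. Of 22 transcript shares 16 moved by more than 1 SD in the second quantification, as did the levels of 12 of 28 genes. Ratios between libraries need both libraries. No paired analysis was possible because there is only 1 group. Depth limits statements on genes with few counts, and near-identical copies limit those on Cd300ld3 to Cd300ld5, Pira2, Lilr4b and Lilrb4a.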
